A study of Rattus norvegicus with 3 samples.

Results

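The genes described here encode the nuclear subunits of the mitochondrial respiratory chain and ATP synthase, together with a few genes that carry the same symbol prefixes. They were taken from the deposited matrix of an Affymetrix rat expression array, which reads the 3' end of transcripts with short oligonucleotide probe sets. A probe set was a candidate where it carried a single gene symbol that began with Nduf, Uqcr, Atp5 or Cox4 to Cox8, or that was Sdha, Sdhb, Sdhc, Sdhd, Cyc1 or Cycs. This gave 82 probe sets of 73 genes, of 13893 genes with a single symbol on the array, and the brightest probe set stood for each gene. By their known roles 65 of the 73 are subunits: 29 of complex I, 4 of complex II, 7 of complex III, 12 of complex IV and 13 of complex V. The other 8 are the complex I assembly factors Ndufaf1, Ndufaf3 and Ndufaf4, the supercomplex factor Cox7a2l, a pseudogene symbol (Cox6c-ps1) and 3 genes that are no subunit despite an old symbol, namely Emc8 (listed as Cox4nb), Dmac2 (Atp5sl) and Dmac2l (Atp5s).

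The samples were peripheral blood mononuclear cells, mainly lymphocytes and monocytes, of male Sprague-Dawley rats aged 2 months. There was 1 array from a control group, 1 from a group that ran downhill on a treadmill and 1 from a group that ran uphill. The sources used here do not give the number of rats behind an array, the running protocol or when blood was taken. Each group has a single array, so no spread between replicates and no test exist, and each difference compares these arrays and not the conditions. The whole-array median intensity was between 216.5 and 228.7 and the share of probe sets called present between 52.4% and 54.4%. The ratio of 3' to 5' actin signal was 2.39 on the control, 2.87 on the downhill and 2.68 on the uphill array. Of the listed markers on the array, 10 of 11 of T cells, 6 of 6 of B cells and 9 of 9 of natural killer cells were called present on every array. The other T cell marker, Cd4, was called absent on every array. For monocytes it was 14 of 15. Markers of other blood cells were detected too, and 9 of 9 of platelets and 8 of 9 of neutrophils were called present on every array. Of 11 erythroid markers, 3 were called present on every array, with 5 present on the control, 4 on the downhill and 11 on the uphill array.

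Complex I takes electrons from NADH and complex II from succinate. Both pass them through ubiquinone to complex III and through cytochrome c to complex IV, where oxygen is reduced, and complex V uses the resulting proton gradient to make ATP. Most subunits are encoded in the nucleus and imported, while a small set is encoded by mitochondrial DNA and was not analysed here. Transcription of the nuclear subunits is commonly linked to the factors NRF1, GABP (an ETS factor) and YY1 at their promoters.

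The subunits were mostly higher on the downhill than on the control array. Genes entered a comparison if the brighter of its arrays reached an intensity of 353, the median over all gene values, and 61 of the 65 subunits passed this in every comparison. The 4 that did not were the complex IV isoforms Cox4i2, Cox6a2, Cox6b2 and Cox8b. Of the 61 counted, 58 were above the control value on the downhill array, by a median log2 difference of 0.28 or 21.4%. A fold of at least 1.2 in this direction (a log2 difference of 0.26) was reached by 32 subunits, 52.5%, against 16.4% of the 7265 genes counted. No subunit was lower by 1.2-fold, against 16.1% of all genes. The differences were small in size, and 2 subunits reached 1.5-fold higher against 3.33% of all genes, and 0 reached 1.5-fold lower against 2.34%. The median over all 7265 genes was -0.0050.

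The uphill array lay closer to the control. There 54 of the 61 subunits were above the control value, with a median log2 difference of 0.18 or 13.0%. At least 1.2-fold higher were 19 subunits, 31.1%, against 18.2% of the 7320 genes counted, and none was 1.2-fold lower against 15.8%. This count depends on the scaling between arrays. It was 9 (14.8%) after quantile normalization and 10 (16.4%) after cyclic loess, against 17.1% and 17.6% of all genes, so under both the subunits were not more often higher than genes at large. By 1.5-fold, 2 subunits were higher against 3.28% of all genes and none was lower against 3.07%. Both running arrays are set against the same control array, so a high or low control value moves both differences together.

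**Figure D1:**
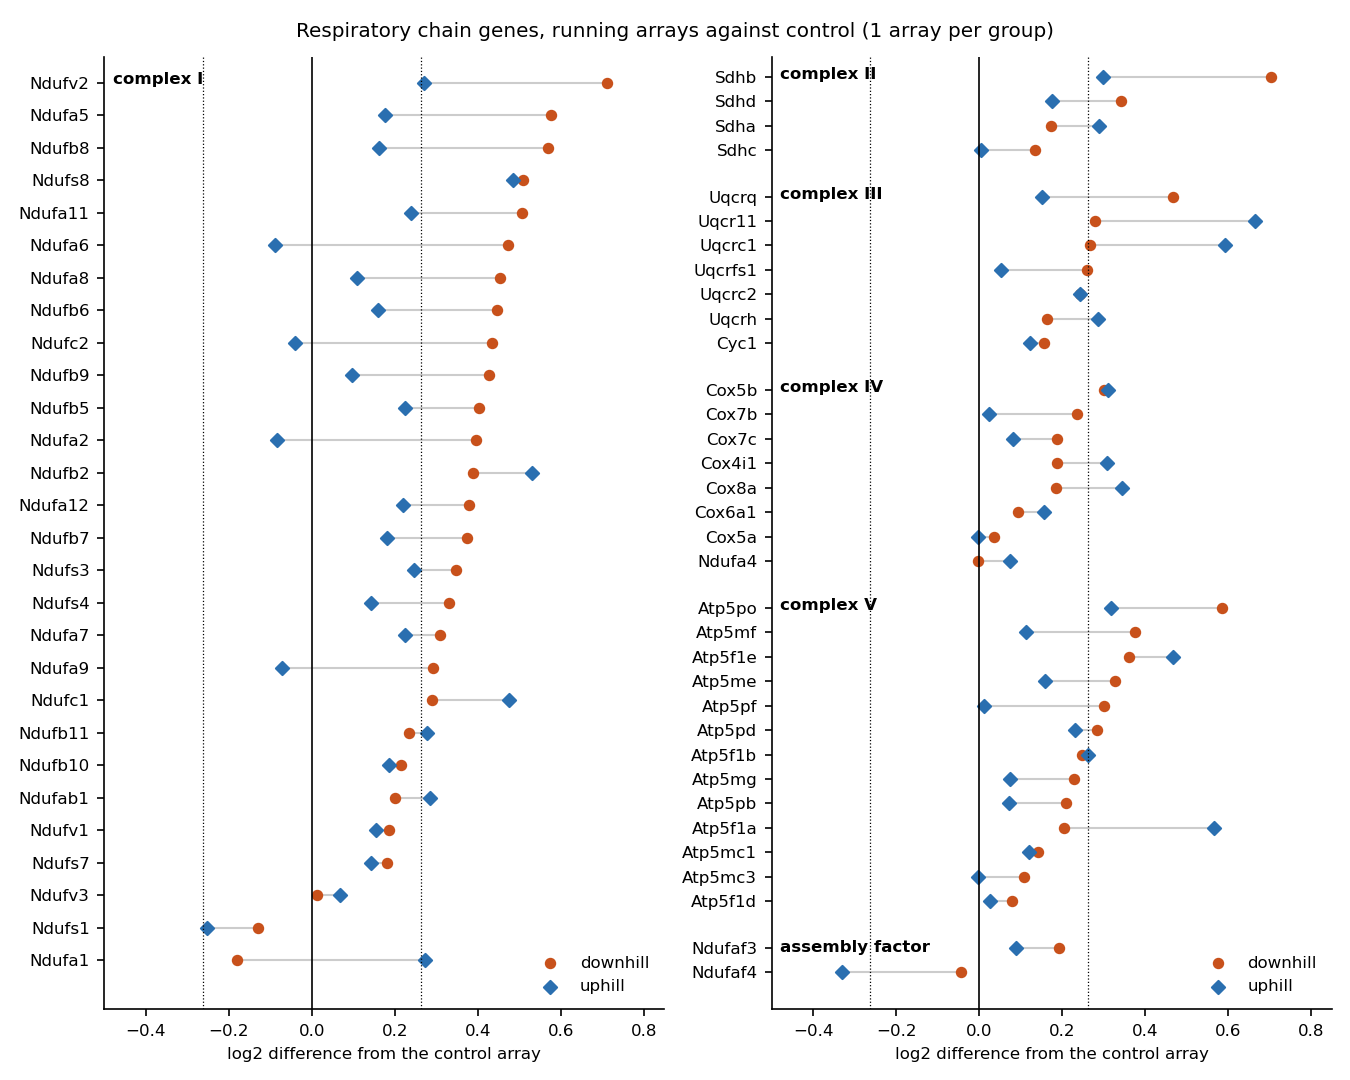
Log2 difference from the control array (horizontal axis) of the counted subunits (all but 1) and assembly factors, with the downhill array as circles and the uphill array as diamonds, 1 array per group. Dotted lines mark 1.2-fold. Complex I genes sit mostly right of the 1.2-fold line on the downhill array and mostly left of it on the uphill array. Over all 29 counted members, 20 and 8 lie beyond it.

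Other features of the arrays differed as well, and their part in these differences was not tested. In bulk samples, a change in the share of a cell type and a change in RNA per cell cannot be told apart. Of the monocyte markers, 15 of 15 were called present on at least 1 array, and their summed intensity was 43001 on the control, 80704 on the downhill and 76150 on the uphill array. Their median log2 difference from control was 1.18 on the downhill array (13 of 14 counted genes above control) and 0.67 on the uphill array (14 of 14). The neutrophil markers had medians of -1.23 (0 of 8 above control) and -0.34 (2 of 8), with summed intensities of 37053, 16292 and 33955 on the control, downhill and uphill array. The erythroid markers had medians of -0.23 (0 of 4) and 2.41 (9 of 9), with sums of 4848, 3675 and 26573. Natural killer cell markers had medians of 0.37 (8 of 9) and 0.24 (7 of 9), B cell markers of -0.28 (1 of 5) and 0.18 (5 of 5), platelet markers of -0.31 (0 of 9) and -0.14 (1 of 9), and T cell markers of -0.13 (3 of 9) and -0.017 (4 of 9). The summed intensities on the control, downhill and uphill array were 25117, 28961 and 28308 for natural killer cells and 9131, 8552 and 10420 for B cells. They were 100166, 84980 and 95006 for platelets and 35686, 33910 and 34695 for T cells. No listed marker had an intensity of 0. The 14 array probe sets listed under E. coli had a median log2 difference from control of 0.27 on the downhill and 0.11 on the uphill array. The 24 listed under B. subtilis differed by -0.20 in both. Whether matching control RNA was added to these samples is not given in the sources used here.

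Brighter genes were also somewhat more often higher on the running arrays. Among genes at or above the 75th percentile of intensity, 739 of 3688 were 1.2-fold higher and 531 lower on the downhill array. On the uphill array 768 of 3725 were higher and 422 lower. With that filter 30 subunits were 1.2-fold higher on the downhill and 19 on the uphill array. That range held 57 of the 61 counted subunits in the downhill comparison.

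Promoters of subunits with some of the largest differences are shown so that the letters known from these factors can be seen in place. RefSeq promoters of the GRCr8 assembly, 250 bases before to 50 after the annotated start, were given for 63 of the 73 members and 57 of the 65 subunits. They were searched on both strands for NRF1 (GCGCANGCG, the first 9 letters of its palindrome), the ETS letters bound by GABP (CCGGAAG), YY1 (AANATGGCG), SP1 (GGGCGG) and the oestrogen-related receptor ERRA (TNAAGGTCA). The 120 bases just before the start are printed in the direction of the gene for 8 subunits, with NRF1 and ETS matches in capitals. Sdhb lies at chr5:158547814-158547933 (plus strand), Atp5po at chr11:44657484-44657603 (minus strand), Ndufa5 at chr4:53971236-53971355 (minus strand) and Ndufs8 at chr1:210573699-210573818 (minus strand). Uqcrc1 lies at chr8:118468103-118468222 (plus strand), Atp5f1a at chr18:73567417-73567536 (plus strand), Cox5b at chr9:46417717-46417836 (plus strand) and Ndufv2 at chr9:113157521-113157640 (minus strand). The Ndufv2 stretch holds neither motif. These 8 are a selection and do not represent all subunits. NRF1 or ETS letters were in 27 of 57 subunit promoters (47.4%). That compares with 14.2% of all gene promoters and 31.6% of those of genes bright enough on these arrays.
Sdhb: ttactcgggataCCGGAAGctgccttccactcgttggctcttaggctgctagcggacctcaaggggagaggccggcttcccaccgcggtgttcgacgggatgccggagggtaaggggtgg
Atp5po: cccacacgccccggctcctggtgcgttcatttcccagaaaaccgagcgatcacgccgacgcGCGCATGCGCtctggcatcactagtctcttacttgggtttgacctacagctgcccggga
Ndufa5: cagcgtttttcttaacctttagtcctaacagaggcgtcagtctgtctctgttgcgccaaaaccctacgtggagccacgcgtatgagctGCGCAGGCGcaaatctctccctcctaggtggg
Ndufs8: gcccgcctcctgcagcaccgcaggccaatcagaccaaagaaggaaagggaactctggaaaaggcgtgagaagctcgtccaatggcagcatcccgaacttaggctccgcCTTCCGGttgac
Uqcrc1: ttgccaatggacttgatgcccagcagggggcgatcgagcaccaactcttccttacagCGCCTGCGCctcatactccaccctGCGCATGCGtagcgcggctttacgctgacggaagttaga
Atp5f1a: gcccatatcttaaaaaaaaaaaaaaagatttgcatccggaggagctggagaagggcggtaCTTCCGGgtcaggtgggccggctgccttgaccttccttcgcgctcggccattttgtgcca
Cox5b: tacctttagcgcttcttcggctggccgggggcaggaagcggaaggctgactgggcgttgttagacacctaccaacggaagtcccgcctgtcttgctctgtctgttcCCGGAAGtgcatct
Ndufv2: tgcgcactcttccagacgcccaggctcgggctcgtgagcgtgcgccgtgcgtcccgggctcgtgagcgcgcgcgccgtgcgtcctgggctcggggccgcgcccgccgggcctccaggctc

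The ETS letters were in 18 of 57 subunit promoters (31.6%), against 9.22% of all 27457 gene promoters and 20.9% of the 6068 promoters of genes bright enough on these arrays. NRF1 letters were in 12 (21.1%), against 6.26% and 14.5%, and YY1 letters in 14 (24.6%), against 3.33% and 7.86%. In Atp5po the NRF1 letters match on both strands, in overlapping positions. Most YY1 matches in subunits began after the annotated start, such as at base 5 in Ndufs4 and base 18 in Sdhb. They thus lie outside the stretches of bases before the start. In Ndufs1, Uqcrc1 and Atp5pf the YY1 match began before the start. SP1 letters were in 22 (38.6%), against 34.9% of all promoters and 64.4% of those of bright genes, and ERRA letters in 2 (3.51%), against 1.15% and 0.494%. None of the 10 complex IV promoters held NRF1 or YY1 letters, and 9 of 26 complex I promoters held YY1 letters. The 57 subunit promoters, and the 10 of complex IV, include isoforms below the intensity limit, such as Cox8b. A match is a description of letters and not a binding site.

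The differences between arrays were set beside these matches. Among counted subunits, the 14 with YY1 letters had a downhill median log2 difference from control of 0.31, and 11 of them were 1.2-fold higher. The 40 without had a median of 0.23, and 17 were 1.2-fold higher, where the share of all genes was 16.4%. On the uphill array the order was the other way, with medians of 0.14 with and 0.18 without YY1 letters. For NRF1 the medians with and without a match were 0.30 and 0.27 on the downhill and 0.18 and 0.17 on the uphill array. For ETS they were 0.30 and 0.26, and 0.21 and 0.16. On the downhill array 7 of 12 with and 21 of 42 without NRF1 letters were 1.2-fold higher. For ETS letters it was 10 of 18 and 18 of 36. With the downhill set against the uphill array, the YY1 medians were 0.23 with and 0.077 without a match. Of the 14 subunits with YY1 letters, 9 belong to complex I, so the split by these letters is in part a split by complex. Complex I had a downhill median of 0.37 from control, with 69.0% of members 1.2-fold higher. Probe sets of the same gene differed from each other by a median of 0.15, 0.21 and 0.19 in the 3 comparisons.

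Complex I, the NADH dehydrogenase, stood highest on the downhill array. All 29 members were counted and 27 were above control, with a median log2 difference of 0.37. At least 1.2-fold higher were 20 (69.0%, against 16.4% of all genes). Ndufv2, the subunit next to the NADH site that carries an iron-sulfur cluster, had an intensity of 1471 on the control, 2411 on the downhill and 1776 on the uphill array. It was 1.64-fold higher on the downhill array, the larger of the 2 subunit differences past 1.5-fold, and its probe set aligned to chromosome 9 (104852720 to 104873283, minus strand, Rnor3.4). Ndufa5, an accessory subunit of the matrix arm, was at 728 on the control, 1086 on the downhill and 823 on the uphill array. Ndufs8, which holds iron-sulfur clusters on the way to ubiquinone, was at 921, 1312 and 1290 in the same order. It was thus higher by a like amount on both running arrays, by 1.42-fold and 1.40-fold. Ndufb8 was at 420, 623 and 470 but was called absent on every array, so no fold is given for it, although it is among the 20.

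Accessory subunits, which surround the catalytic core of complex I, were 17 of its 20 members past 1.2-fold. Of all 22 accessory subunits, 21 were above control on the downhill array, with a median log2 difference of 0.38. The 7 nuclear core subunits had a median of 0.19 and 3 of them were 1.2-fold higher. Within the core, the NADH-oxidising members Ndufv1 and Ndufs1 had log2 differences of 0.19 and -0.13 beside the 0.71 of Ndufv2, so neighbours in the same module differed. Ndufs1, the largest core subunit, was at 562 on the control, 514 on the downhill and 472 on the uphill array. It was the counted complex I member with the lowest uphill value relative to control. Its log2 difference there, -0.25, is just inside the 1.2-fold limit.

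On the uphill array complex I had a median log2 difference of 0.18, with 24 of 29 members above control. At least 1.2-fold higher were 8 (27.6%, against 18.2% of all genes). Ndufb2, an accessory subunit of the membrane arm, was at 1414 on the control, 1851 on the downhill and 2043 on the uphill array. Ndufc1, also of the membrane arm, was at 1745, 2133 and 2426 in that order. For both genes the uphill array was the highest of the 3. The 7 core subunits had an uphill median of 0.25 and the 22 accessory subunits one of 0.18, the reverse of their order on the downhill array. This uphill gap is smaller than the 0.21 by which probe sets of a gene differed in this comparison. The split into core and accessory subunits was not recomputed under other processing.

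Complex II, succinate dehydrogenase, also belongs to the citrate cycle and has only nuclear subunits, all 4 of which were counted. Sdhb, its iron-sulfur subunit, was at 1915 on the control, 3117 on the downhill and 2355 on the uphill array. It was 1.63-fold higher than control downhill and 1.23-fold higher uphill. Sdha, the flavin-bearing catalytic subunit, was at 1435, 1618 and 1753 in the same order. The membrane anchor Sdhc differed less, at 2356, 2585 and 2362. The other anchor, Sdhd, was at 2481, 3147 and 2803, a log2 difference of 0.34 on the downhill array. Its second probe set, at 2156, 2153 and 2014, gave -0.0018, so the Sdhd difference is not shared by both of its probe sets.

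Complex III, the cytochrome bc1 complex, had all 7 members above control on both running arrays, with medians of 0.26 on the downhill and 0.24 on the uphill array. The uphill median was 0.15 with the mean of probe sets. Uqcrq, a small subunit, was at 3169 on the control, 4381 on the downhill and 3518 on the uphill array. Uqcr11, the smallest subunit, was at 1720, 2088 and 2724, and Uqcrc1, a core protein related to the mitochondrial processing peptidase, was at 1867, 2245 and 2814. Uqcrq was thus highest on the downhill array, and Uqcr11 (1.58-fold over control) and Uqcrc1 (1.51-fold) were highest on the uphill array and are the 2 subunits past 1.5-fold there. The catalytic subunits were closer to control on the uphill array. Cyc1, which carries the cytochrome c1 haem, was at 1803, 2009 and 1963, and the Rieske iron-sulfur protein Uqcrfs1 was at 3860, 4622 and 4003. Uqcrh, which helps cytochrome c to dock, was at 6540, 7328 and 7970. For the core protein Uqcrc2, the brighter probe set was at 3188, 3771 and 3775, and the other one, at 626, 736 and 487, gave an uphill log2 difference of -0.36 against 0.24.

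Complex IV, cytochrome c oxidase, had the lowest downhill median of the 5 complexes, where 1 of 8 counted members (12.5%, against 16.4% of all genes) was 1.2-fold higher and the median was 0.19. On the uphill array 3 of 8 (37.5%, against 18.2% of all genes) were 1.2-fold higher. The median there was 0.12, which ranged from 0.051 after quantile normalization to 0.20 with median-centred arrays. Cox5b, a matrix-side subunit, was at 4476 on the control, 5512 on the downhill and 5551 on the uphill array, and passed 1.2-fold on both. Cox8a was at 4744, 5394 and 6022, and Cox4i1, the common isoform of subunit 4, was at 6125, 6973 and 7583. Both were highest on the uphill array. Cox7b was at 5210, 6132 and 5298 and Cox7c at 5670, 6457 and 5998, with the downhill array highest. Cox6a1 was at 5152, 5498 and 5744. Ndufa4, once counted with complex I and now known as a complex IV subunit, was nearly level at 4054, 4043 and 4270. The Cox5a probe set with a single symbol was level as well, at 1063, 1089 and 1061. A much brighter probe set, which names Cox5a together with other genes, was not level, at 11093, 9971 and 13016. Its log2 differences from control were -0.15 on the downhill and 0.23 on the uphill array.

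The tissue isoforms of complex IV divided by detection. The ubiquitous Cox4i1, Cox6a1 and Cox8a were called present on every array. Cox4i2, an isoform known from lung, was called absent on every array at 132 on the control, 123 on the downhill and 136 on the uphill array. The heart and skeletal muscle isoforms Cox6a2 (193, 154 and 150) and Cox8b (55.9, 91.8 and 80.4) were also called absent throughout. Cox6b2, known from testis, was at 234, 271 and 257 and was called present on the running arrays. Of the 4 skeletal muscle markers on the array, Acta1, Ckm and Mb were called present on none. The other, Tnnt3, was called present on every array, at 289 on the control, 285 on the downhill and 422 on the uphill array.

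Complex V, the ATP synthase, had all 13 members above control on the downhill array. Of them 6 (46.2%, against 16.4% of all genes) were 1.2-fold higher, and the median was 0.25. On the uphill array the median was 0.12, from 0.074 after quantile normalization to 0.20 with median-centred arrays. There 3 members (23.1%) were 1.2-fold higher, near the 18.2% of all genes. Atp5po, the peripheral stalk subunit that confers oligomycin sensitivity, was at 2153 on the control, 3228 on the downhill and 2684 on the uphill array. Its downhill fold over control, 1.499, lies just under the limit of 1.5. Its second probe set was called absent on every array. The stalk subunits Atp5pd (4870, 5926 and 5715), Atp5pf (2443, 3011 and 2462) and Atp5pb (6013, 6945 and 6323) were also highest on the downhill array.

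The genes of the head of ATP synthase differed among themselves, and their range overlapped that of the peripheral stalk. Atp5f1a, the alpha subunit of the head, was at 2035 on the control, 2344 on the downhill and 3014 on the uphill array. Atp5f1e, the epsilon subunit of the central stalk, was at 7225, 9281 and 9990. The catalytic beta subunit Atp5f1b was at 3957, 4701 and 4747, and the delta subunit Atp5f1d was nearly level at 2588, 2734 and 2636. The 4 head and central stalk genes had a median log2 difference of 0.23 on the downhill and 0.36 on the uphill array, while the 4 peripheral stalk genes had 0.29 and 0.15. The central stalk gene Atp5c1 is not among them, as its probe sets also name other genes. Its brighter probe set had log2 differences from control of 0.37 on the downhill and 0.14 on the uphill array. The dimmer one had 0.44 and 0.31, so both were higher on the downhill array. In the membrane part, Atp5mf was at 4482, 5816 and 4842, Atp5me at 1826, 2291 and 2037 and Atp5mg at 5493, 6432 and 5782. The genes Atp5mc1 (1548, 1709 and 1683) and Atp5mc3 (4865, 5242 and 4857) encode the same proton-carrying ring subunit and differed little between arrays.

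**Figure D2:**
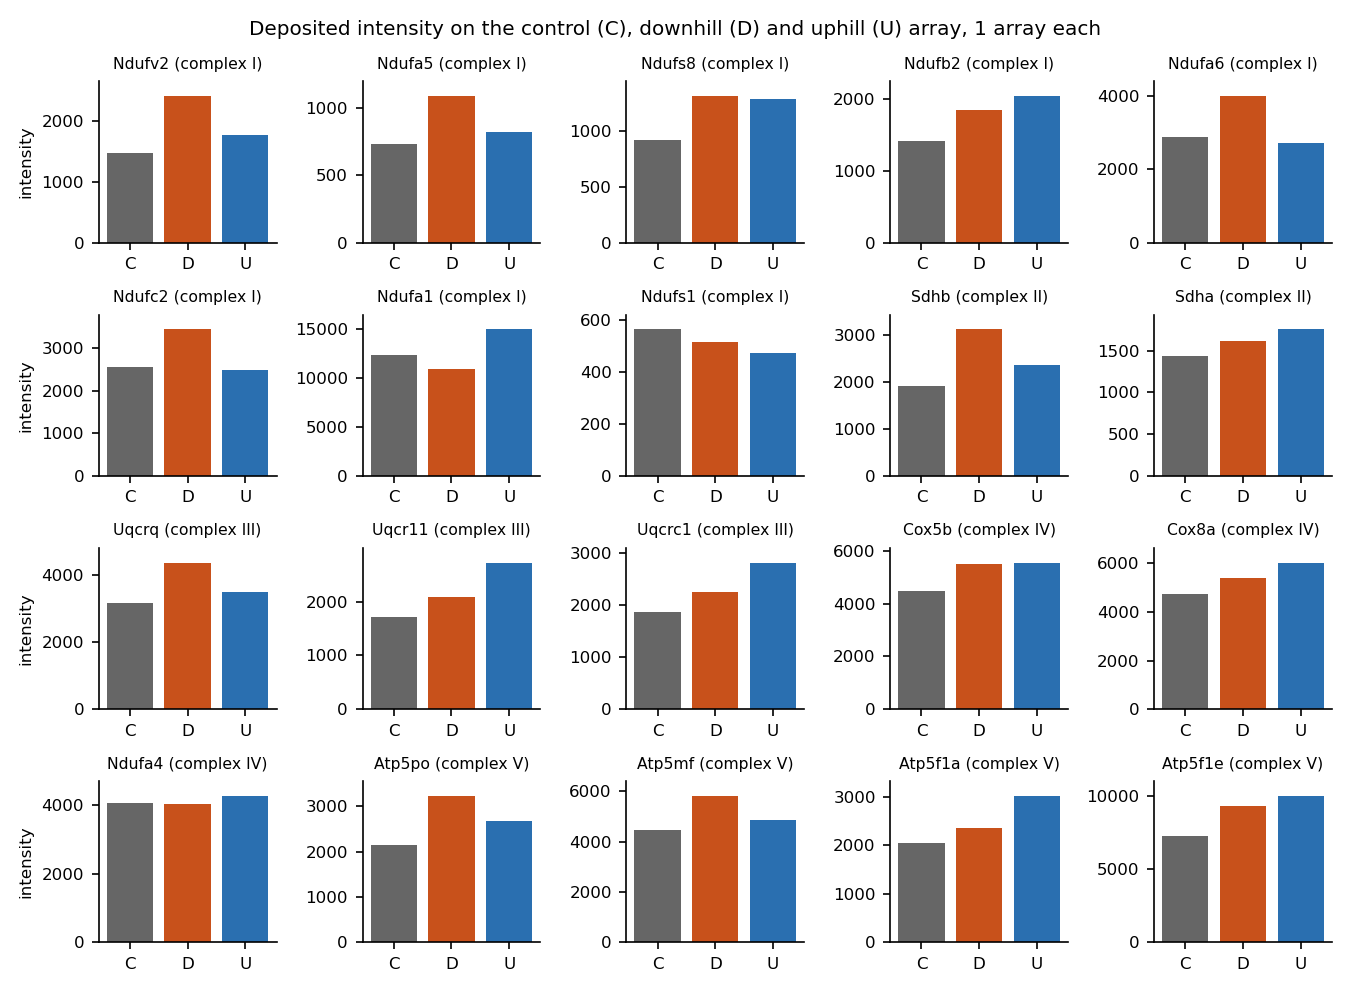
Deposited linear intensity (vertical axis, from 0, scaled for each gene) of 20 subunits on the control (C), downhill (D) and uphill (U) array, 1 array each. Ndufv2, Sdhb and Atp5po are highest on the downhill array, and Uqcr11, Uqcrc1 and Atp5f1a on the uphill array.

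The complex I assembly factors lay closer to control on the downhill array than the subunits did. Ndufaf4, a matrix protein needed to build complex I, was at 1745 on the control, 1692 on the downhill and 1387 on the uphill array, 1.26-fold lower than control on the last. Ndufaf3, its partner in assembly, was at 469, 536 and 499. Ndufaf1 was called absent on every array at 77.8, 80.4 and 72.3, so 2 factors were counted and neither was 1.2-fold higher in either running array. Their median log2 difference was 0.074 on the downhill and -0.12 on the uphill array, against 0.28 and 0.18 for the 61 subunits. With 2 genes this is a description of those genes. Factors outside the symbol rule gave a broader view. These build or insert cofactors into complexes I to V, and 30 of the 34 listed were on the array.

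Of these other assembly factors, 4 of 18 counted were 1.2-fold higher on the downhill array and 1 was lower, with a median log2 difference of 0.098. On the uphill array 5 of 19 were higher and 1 was lower, with a median of 0.17. The shares higher, 22.2% and 26.3%, lie near the 16.4% and 18.2% of all genes, and the shares lower are 5.56% and 5.26% against 16.1% and 15.8%. Cox19, a copper-handling factor of complex IV, was at 636 on the control, 857 on the downhill and 776 on the uphill array. Cox10, which makes the haem of complex IV, was at 759, 556 and 627 and was the member lower on the downhill array. Uqcc3, a complex III factor, was at 426, 556 and 579, and the ATP synthase factor Atpaf2 was at 587, 610 and 906. Atpaf2 was the member past 1.5-fold on the uphill array. Medians of these factors were nearer to 0 than the subunit medians, by a wider margin on the downhill array than on the uphill one.

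Regulators of mitochondrial gene expression had medians below control, over few genes. Of 14 listed, 8 were counted, 0 were 1.2-fold higher on either running array and 3 were lower on each, with medians of -0.19 on the downhill and -0.20 on the uphill array. The 3 of 8 (37.5%) stand against 16.1% and 15.8% of all genes. Gabpa, the DNA-binding part of GABP, was at 809 on the control, 653 on the downhill and 646 on the uphill array. Pprc1, a coactivator of the PGC-1 family, was at 525, 374 and 461. Yy1 was at 3376, 3028 and 2798, and Tfam, which packages and transcribes mitochondrial DNA, was nearly level at 1189, 1148 and 1199. Ppargc1a, the PGC-1alpha gene known from exercised muscle, was called absent on every array. Twnk, the mitochondrial DNA helicase, was at 662 on the control and, called absent there, at 571 on the downhill and 271 on the uphill array. It is 1 of the 3 counted as lower on the uphill array.

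Markers of mitochondrial content and the other carriers lay near control in their medians. Citrate synthase, Cs, a customary measure of mitochondrial mass, was at 2589 on the control, 2505 on the downhill and 2643 on the uphill array. The outer membrane channel Vdac2 was at 4064, 5038 and 5160, and Sod2, the mitochondrial superoxide dismutase, was at 8897, 7401 and 8310. Of 9 content markers, 2 (22.2%) were 1.2-fold higher and 1 (11.1%) lower on the downhill array, against 16.4% and 16.1% of all genes. On the uphill array 3 (33.3%) were higher and 0 lower, against 18.2% and 15.8%. Their medians were 0.11 and 0.033. Above control were 5 of the 9 on the downhill and 7 on the uphill array. The adenine nucleotide carrier Slc25a4 was at 1024, 1195 and 698, and Ucp2, an uncoupling protein relative of leukocytes, was at 4290, 4409 and 5657. Atp5if1, the inhibitor of ATP synthase, which the file lists under an older symbol outside the rule, was at 8257, 7137 and 8980. The 10 counted carriers had medians of 0.050 and -0.0045, with 8 and 5 of them above control.

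The downhill and uphill arrays were then set against each other, a comparison that does not use the control array. Of the 61 subunits, 41 had the higher value on the downhill array, with a median log2 difference of 0.10 against -0.025 for all genes. At least 1.2-fold higher on the downhill array were 16 (26.2%), against 14.2% of the 7171 genes counted, and 4 were 1.2-fold lower, against 16.7%. None differed by 1.5-fold either way, against 2.16% of all genes higher and 2.22% lower. Complex I held 11 of the 16, and its median was 0.16. Mitochondrial ribosomal proteins (0.16) and proteasome subunits (0.17) had medians of like size in this comparison. The medians of the other complexes were 0.15 for II, -0.0014 for III, -0.037 for IV and 0.11 for V, and the sign for III and IV changed with the processing.

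The complex I members that favoured the downhill array included Ndufa6, an accessory subunit of the matrix arm, at 2877 on the control, 3994 on the downhill and 2705 on the uphill array. Ndufa2 was at 1389, 1827 and 1310 and Ndufc2, a membrane arm subunit, was at 2540, 3432 and 2471. For all 3 the uphill value was slightly below control. Ndufa9, at 1205, 1475 and 1146, followed the same order. The 4 subunits 1.2-fold lower on the downhill array were Ndufa1, Uqcr11, Atp5f1a and Uqcrc1. Ndufa1, an X-linked membrane arm subunit, was at 12347 on the control, 10895 on the downhill and 14913 on the uphill array. Its log2 differences from control were -0.18 on the downhill and 0.27 on the uphill array.

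**Figure D3:**
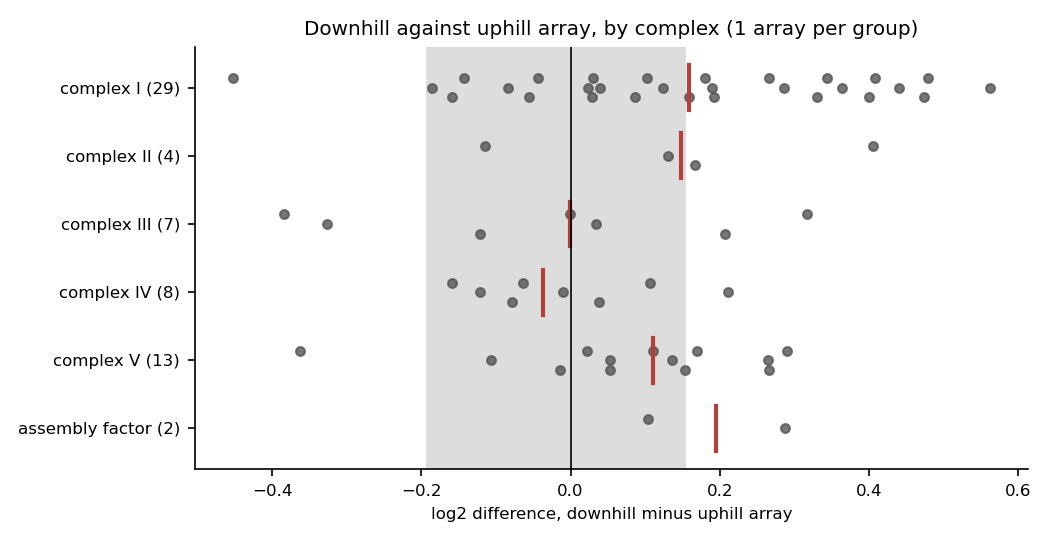
Log2 difference between the downhill and the uphill array (horizontal axis) of counted subunits and assembly factors by complex, each point a gene and each red line the median, with the number of genes in brackets. The grey band spans the middle of all genes, from the 25th to the 75th percentile (-0.19 to 0.15). Of the complex I genes, 22 of 29 lie right of 0, and complexes III and IV are centred near it.

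Gene groups of like kind give the scale for these shares. Mitochondrial ribosomal proteins, which translate the subunits encoded in mitochondrial DNA, had a downhill median log2 difference from control of 0.33, and 41 of 70 were at least 1.2-fold higher. Proteasome subunits had a median of 0.26 with 18 of 36. Cytosolic ribosomal proteins had a median of 0.097 with 1 of 35. The respiratory chain subunits (0.28, 32 of 61) thus lay between the first and the second group and above the third, and the difference between groups was not tested. Between uphill and control the medians were 0.14, 0.11 and 0.035 for these groups in that order, against 0.18 for the subunits. A downhill difference of this size was seen in mitochondrial ribosomal and proteasome genes as well. With the downhill set against the uphill array, mitochondrial ribosomal proteins had a median of 0.16, with 27 of 70 (38.6%) 1.2-fold higher. Proteasome subunits had 0.17 with 11 of 36 (30.6%) and cytosolic ribosomal proteins 0.064 with 2 of 36 (5.56%), against 14.2% of all genes. Complex I, with 0.16 and 37.9%, lay near the mitochondrial ribosomal proteins.

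**Figure D4:**
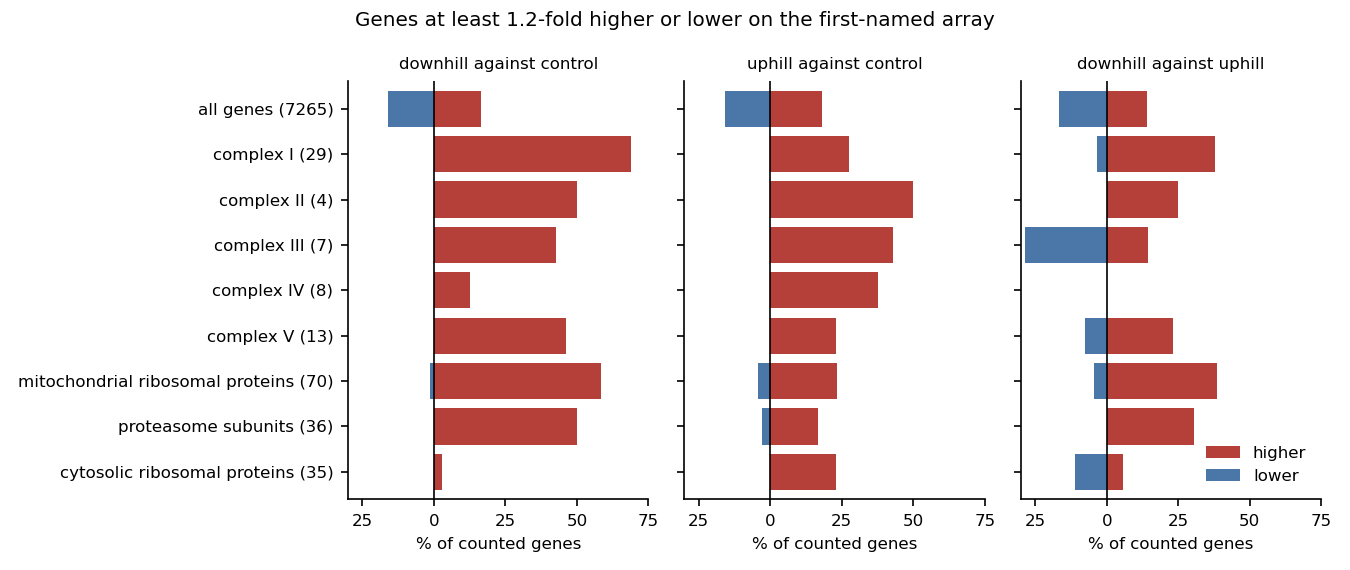
Share of counted genes at least 1.2-fold higher (red, right) or lower (blue, left) on the first-named array, for all genes, each complex and 3 like groups, with the number counted in downhill against control in brackets. Against control, complex I reaches 69.0% higher downhill and 27.6% higher uphill, and all genes 16.4% and 18.2%.

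The remaining genes with these prefixes were not subunits. Cox7a2l, which helps complexes III and IV to join in supercomplexes, was at 6134 on the control, 7119 on the downhill and 6259 on the uphill array. Emc8, a part of the endoplasmic reticulum membrane complex, was at 627, 811 and 854. Dmac2, a complex I assembly protein, was at 411, 543 and 566, but its second probe set was level at 482, 484 and 471. Dmac2l was below the intensity limit at 100.3, 90.4 and 333, although called present on every array, and its second probe set was called absent on every array at 113, 110 and 93.2. The Cox6c-ps1 probe set was called absent throughout.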

How the data were processed

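RNA of blood mononuclear cells from 1 control, 1 downhill and 1 uphill sample was measured on 1 array each. The deposited intensity values had been normalized by the authors with RMA, per the submitters' processing notes, and are on a linear scale from 1 to 34070. Which software version was used is not given in the sources used here. Present, marginal or absent calls were deposited beside them, by an unstated algorithm. The deposited series table repeats these intensities (93297 cells, tolerance 1e-06) and adds nothing. Alignments are those of the file, on Rnor3.4, printed as the file gives them.

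Intensity was converted to log2 without an offset. Symbols were updated through Entrez numbers to RefSeq GRCr8, in which all 73 members were found (16 under a new symbol). For the 9 members with several probe sets, the one of highest mean log2 value was used. Genes whose brighter array reached 353 were counted, at 1.2-fold and 1.5-fold. No fold is printed if the brighter array lacks a present call. No test was run, as each group has 1 array, which limits the precision. Probe sets of a gene differed in log2 difference by a median of 0.15 for downhill and 0.21 for uphill, each against control, and 0.19 for downhill against uphill.

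The members, gene lists, motifs and thresholds were chosen with earlier results of these data known. Values are given for the 4 members of each complex with the largest difference from control on each running array, for isoform pairs, for assembly factors and for further members and list genes picked after their values were seen. Values of 1 gene that this rule names are not reported here. The counting was tested on simulated data. Alternatives were a higher fold, other intensity filters, presence on all arrays, median centring, quantile normalization and cyclic loess (limma 3.58.1, span 0.7), an offset of 50, the mean of probe sets, and leaving out probe sets with suffixes _s_at, _x_at and _a_at. Where RefSeq lists several promoters of a gene the first was used. R 4.3.3 and Python 3.11.15 were used.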

Additional observations from a re-analysis of the deposited data

Results flagged for a closer look

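Probe sets that name a respiratory chain gene together with other genes were left out of the comparisons above. There were 14 such probe sets for 12 genes, and 11 of them were at least 1.2-fold higher on the downhill than on the control array, while 2 were on the uphill array, against 16.4% and 18.2% of all genes. Each value below exceeds the control array by at least 1.2-fold, which is why it is listed, and reads all of the genes named by its probe set. The log2 differences between downhill and control were 0.43 for both Cycs probe sets (cytochrome c, the carrier between complexes III and IV; 0.4282 and 0.4307), 0.43 for Atp5g2 (one of the genes for the ATP synthase ring subunit), and 0.37 and 0.44 for the Atp5c1 probe sets (the gamma subunit of the central stalk). They were 0.32 for Ndufb4, 0.42 for Ndufb3, 0.30 for Ndufs5, 0.34 for Ndufa3 and 0.28 for Ndufa10, all of complex I, and 0.32 for Uqcrb of complex III. Between uphill and control they were 0.60 for Atp5g2 and 0.31 for the dimmer Atp5c1 probe set. The 3 probe sets not past 1.2-fold were those of Cox5a, Cox6c and Cox7a2 of complex IV, with downhill log2 differences of -0.15, 0.22 and 0.12. The Cycs probe sets were at 2717 and 1884 on the control, 3656 and 2540 on the downhill and 2645 and 1625 on the uphill array.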

How the results depend on the processing

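With 1 array per group, no difference has a replicate check. No paired analysis was possible because each group has a single array and the columns carry no replicate numbers. Of 276 recomputed values, 259 kept their sign and stayed within a set limit, 10 moved further and 7 changed sign. The limit was the spread between probe sets of a gene for medians and 1.5 times for counts. For uphill against control that spread, 0.21, exceeds the subunit median of 0.18, so staying within the limit is no measure of stability. The median over all subunits ranged from 0.24 to 0.34 between downhill and control, from 0.13 to 0.26 between uphill and control and from 0.083 to 0.14 between downhill and uphill over 9 alternatives each. At 1.5-fold the numbers of subunits higher were 2 on the downhill and 2 on the uphill array, each against control. Between downhill and uphill 0 were higher and 0 lower. The number higher on the uphill array was 9 after quantile normalization and 10 after cyclic loess, against 19. These are 14.8% and 16.4% of the subunits, against 17.1% and 17.6% of all genes; the cause was not tested. The uphill medians of complexes III, IV and V went down to 0.15 (mean of probe sets), 0.051 and 0.074 (both quantile) and those of IV and V up to 0.20 and 0.20 (median centring). The downhill median of complex II was 0.17 with the mean of probe sets. Without the intensity filter 1 subunit, the absent Cox6a2, was 1.2-fold lower on each running array. With the 75th percentile filter, or without suffixed probe sets, Ndufaf4 alone remained of the assembly factors, with medians of -0.044 (downhill, a change of sign) and -0.33 (uphill). Between downhill and uphill, complex III changed sign after quantile normalization (0.020), cyclic loess (0.032) and the mean of probe sets (0.034), and complex IV without the filter (0.011) and after quantile normalization (0.015); these medians are near 0 and the cause was not tested. Median centring moved all genes, with 22.3% higher and 11.2% lower between downhill and control and 27.1% and 10.8% between uphill and control, and gave 41 and 28 subunits 1.2-fold higher; the median of all genes was then 0.061 and 0.11.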
